A study of Caenorhabditis elegans with 54 samples.

Results

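The 6 libraries described here are one experiment of a Caenorhabditis elegans RNA sequencing series of 54 libraries: 3 libraries of RNA bound to immunoprecipitated intestinal ribosomes, and 3 libraries of total RNA. Libraries were chosen by their labels, Intestine IP and Intestine total, replicates 1 to 3 of each. The strain was WBM1470, which carries the allele wbmIs131: a FLAG-tagged copy of rpl-22, a protein of the large ribosomal subunit, under the promoter of nep-17. The series text gives WBM1471 for the intestine and neurons B alike, while the sample labels give WBM1470, and the labels were followed. Both fractions came from this same tagged strain, at day 1 of adulthood, grown at 20 °C on Escherichia coli OP50. New alleles had been outcrossed to the N2 wild type. The IP, which the submitters call SKI TRIP, pulls tagged ribosomes and the RNA on them out of a lysate of whole animals, so the total RNA holds the intestine together with every other tissue. An IP from animals without the tag was not analysed here. The labels do not say that replicates were separate cultures, so the p-values speak of the spread among these libraries alone, which may be partly technical.

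The intestine of C. elegans is a tube of large cells that run from the pharynx to the rectum. It digests bacteria in its lumen, stores fat, makes the yolk that is shipped to oocytes, breaks down foreign compounds and meets swallowed pathogens first. The GATA factor ELT-2 is active throughout it and is known as the regulator of a large part of its genes. A ratio of IP over total RNA rises when a transcript sits on intestinal ribosomes more than on the animal's RNA at large, so number of cells, RNA per cell and ribosome load cannot be told apart in it.

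Depth differed between the libraries. IP replicate 2 was the shallowest: a single read there was worth about 7.08 normalized counts, against 1.54 and 0.873 in IP replicates 1 and 3 and 0.369 to 0.590 in the total RNA libraries, and 6112 of 17751 listed genes stood at 0 in it. Estimated from that size, the IP libraries held about 24500000, 7100000 and 36300000 reads and the total RNA libraries about 27900000, 48800000 and 35500000. Across genes, IP replicate 2 correlated with IP replicates 1 and 3 at 0.860 and 0.818, against 0.925 between IP replicates 1 and 3. In total RNA replicate 3 had the lower correlations, 0.927 and 0.912, against 0.979 between replicates 1 and 2. The IP was dominated by few transcripts, since the 10 most abundant genes held 19.1% to 29.1% of each IP library and 3.96% to 7.24% of each total RNA library.

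Of 13629 genes with a mean of at least 10 normalized counts, 2427 (17.8%) rose in the IP and 1310 (9.61%) fell, 27.4% in all (limma-trend on log2 of the normalized count plus 1, Benjamini-Hochberg adjusted p under 0.05). Each of these 2427 and 1310 genes had its direction in all 3 pairs of same-numbered libraries. They were called on these same libraries, so this follows largely from the call and is no separate support. The IP lay above total RNA in every library for 3073 genes (22.5%) and below it for 3577 (26.2%). The log2 ratio had a median of -0.42 over all tested genes, its 5th percentile was -2.77 and its 95th 3.98. The rises were thus the larger changes. With same-numbered libraries kept as pairs by a replicate block, 3122 (22.9%) rose and 2891 (21.2%) fell. Without the shallow IP replicate 2, 2950 (21.6%) rose and 1781 (13.1%) fell.

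Scaling decides where 0 lies. The deposited values sum to 37800000, 50200000 and 31700000 in the IP libraries, against 16500000, 18000000 and 17000000 in total RNA. Scaling every library to one sum moved the median of all tested genes by -1.15, to -1.58, and left 1509 (11.1%) higher and 5484 (40.2%) lower, so that 21.6% of the calls were rises where the deposited scaling gave 64.9%. All ratios below are on the deposited scale and are best read against the median of -0.42. Falls were also less steady than rises: without total RNA replicate 1, 1799 genes rose and 263 fell, without total RNA replicate 2, 1891 and 500, and without IP replicate 1, 1921 and 783.

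The gene that lent its promoter was high on the tagged ribosomes. nep-17 encodes a neprilysin-type metalloprotease and lies on chromosome II at 13507819 to 13516478 (ce11). It stood at 22000, 14080 and 26760 normalized counts in IP replicates 1, 2 and 3, against 1758, 1694 and 2813 in total RNA (log2 ratio 3.32, SE 0.35, adjusted p = 0.00041). The tagged gene itself was not called. rpl-22 had 59140, 52460 and 53700 in the IP, against 23960, 38740 and 29780 in total RNA (log2 ratio 0.86, SE 0.32, adjusted p = 0.078), and its sign turned to -0.33 with equal-sum scaling, while the call was made with the replicate block (adjusted p = 0.038). Whether reads of the tagged copy count towards rpl-22 was not tested.

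Cell type markers were described next. Their lists were chosen with earlier results of these data known, so they are not an independent check of the label. All 26 intestine markers rose, with a median log2 of 3.63, in the main test, in each fit with 1 library left out, with equal-sum scaling and with the replicate block; with equal-sum scaling their median was 2.45. Together they held 9.36%, 8.09% and 12% of the IP libraries, against 1.38%, 1.47% and 2.93% of total RNA. The markers include vit-2, vit-6, asp-1, asp-3, cpr-1 and cpr-6, so this share overlaps the yolk and protease shares given below. elt-2 stood at 2119, 598 and 3211 in the IP and 113, 110.5 and 269.5 in total RNA (log2 ratio 3.40, SE 0.66, adjusted p = 0.0073). The 3 IP values of elt-2 lay above every total RNA value, and the lowest was that of the shallow replicate 2.

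Many markers of the germline and of muscle were lower in the IP but not absent from it. Of 40 germline and oocyte markers 36 fell and 0 rose (median log2 -1.63); 18 fell without total RNA replicate 1. gld-1, which encodes a translational repressor of the germline, had 4047, 2555 and 2799 in the IP, against 12870, 11220 and 10140 in total RNA (log2 ratio -1.89, SE 0.28, adjusted p = 0.0021). The summed level of the germline markers was 0.211% to 0.369% of the IP libraries and 1.80% to 2.33% of total RNA, with no marker at 0. Of 26 body wall muscle markers 13 fell and 0 rose, but 5 fell without total RNA replicate 1, 8 without total RNA replicate 2, 7 without total RNA replicate 3 and 8 without IP replicate 1; 19 fell and 1 rose with the replicate block, and 21 fell with equal-sum scaling. The muscle myosin gene myo-3 had 312, 141 and 706 in the IP and 765, 877 and 3079 in total RNA and passed with the pairing but not without it (log2 -2.02, adjusted p = 0.071; 0.0027 with the replicate block). In sum these markers were at 0.172% to 0.231% of the IP libraries, against 0.781% to 1.14% of total RNA.

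The remaining marker sets were described by fewer calls. Of 21 epidermis markers 5 fell (10 with the replicate block), 3 of 14 pharynx markers fell, 3 of 26 neuron markers fell (5 fell and 2 rose with the replicate block), and 5 of 35 sperm genes fell (18 with the replicate block). In the main test 0 of these rose. Of all tested genes 9.61% fell, and the share of neuron markers that fell is near that. With equal-sum scaling 13 epidermis, 6 pharynx, 13 neuron and 32 sperm markers fell, as did 40.2% of all tested genes. Many sperm genes are near-identical msp copies, so their single counts are uncertain. Their median log2 values were -1.56, -1.50, -1.34 and -1.2, where all tested genes had -0.42. The counts of falls also moved with single libraries. Of the epidermis markers 1 fell without total RNA replicate 1 or 2 and 3 without IP replicate 1. Of the pharynx markers 0 fell without total RNA replicate 1 or 3 and 1 without total RNA replicate 2 or IP replicate 1. Of the neuron markers 0 fell without IP replicate 1 or any 1 of the total RNA libraries. Without total RNA replicate 3, 2 neuron markers rose, and 1 did without IP replicate 2. Of the sperm genes 0 fell without total RNA replicate 1 or 2, 2 without IP replicate 1 or 3, 12 without total RNA replicate 3 and 13 without IP replicate 2. In sum epidermis markers held 0.0917% to 0.161% of the IP libraries and 0.663% to 0.791% of total RNA, and neuron markers 0.00976% to 0.0310% and 0.0364% to 0.0822%. For pharynx markers the range was 0.00500% to 0.0109% of the IP and 0.0208% to 0.0572% of total RNA, and for sperm genes 0.0104% to 0.0126% and 0.0349% to 0.0728%. In IP replicate 2, 6 of 24 listed epidermis markers, 8 of 18 pharynx markers, 5 of 28 neuron markers and 5 of 38 sperm genes were at 0. The neuronal vesicle gene rab-3 had 90.8, 102 and 181 in the IP and 84.3, 41.7 and 155 in total RNA, with overlapping groups (adjusted p = 0.52). unc-122, a coelomocyte gene, had 6.19, 0 and 40.7 in the IP and 16.5, 19.5 and 48.4 in total RNA, and all 3 coelomocyte markers were at 0 in IP replicate 2. myo-2, the pharyngeal myosin gene, had 926, 163 and 886 in the IP, against 568, 399.5 and 2512 in total RNA. dpy-7, a cuticle collagen gene, had 10.9, 43.5 and 229 in the IP, against 23.1, 40.6 and 860.5 in total RNA. Both were highest in total RNA replicate 3, their groups overlapped, and neither was called (adjusted p = 0.55 for myo-2 and 0.65 for dpy-7). Among 6 tested excretory canal markers 2 rose, exc-15 (log2 3.68, SE 0.27, adjusted p = 0.00015) and exc-5 (log2 2.24, SE 0.66, adjusted p = 0.038; exc-5 missed the threshold with equal-sum scaling and without IP replicate 1 or 3 or total RNA replicate 1 or 2). With equal-sum scaling 1 of the 6 rose and 3 fell. In sum the excretory canal markers held 0.0475% to 0.0658% of the IP libraries, against 0.0159% to 0.0179% of total RNA. Most of that IP sum came from exc-15 alone, with a mean of 20870 normalized counts in the IP and 1609 in total RNA. The sum thus does not speak for the set, and the median log2 of the 6 tested markers was -0.92. Of 9 gonadal sheath and spermatheca markers 1 fell, inx-8, which was not called without total RNA replicate 1 or 2 (8 fell with equal-sum scaling), and 0 of 4 tested glial markers were called. The part of RNA from these tissues in the ratios was not tested.

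**Figure D1:**
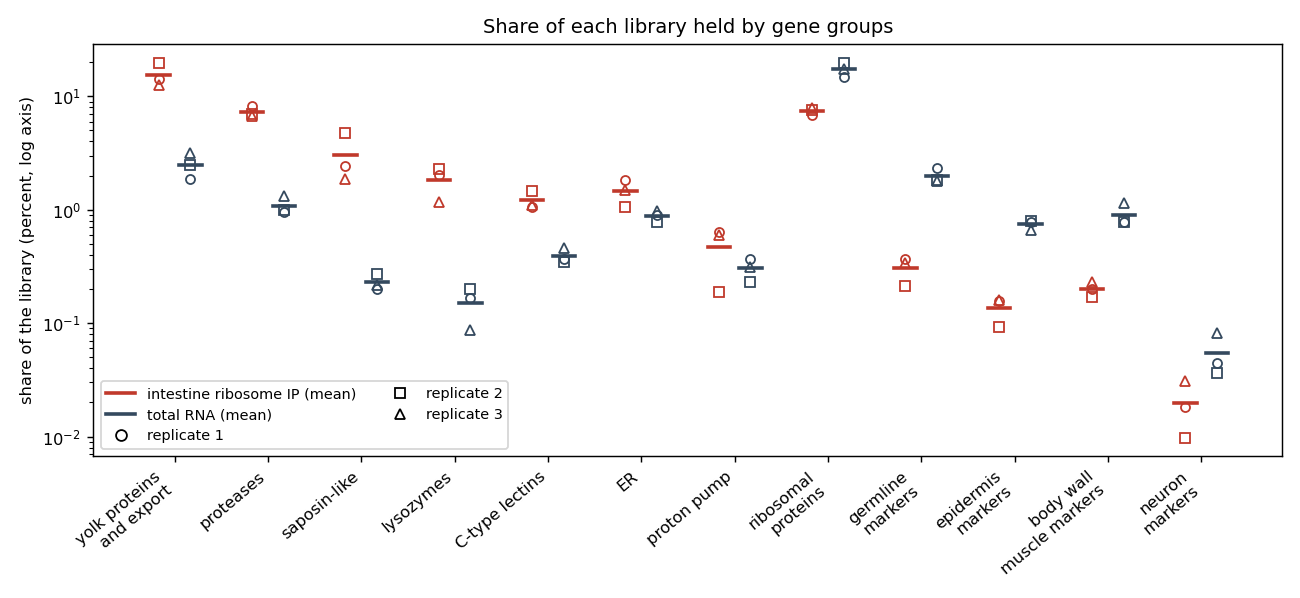
Share of each library (percent of all normalized counts, log axis) held by 12 gene groups in the 3 intestine IP libraries (red, left of each pair) and the 3 total RNA libraries (blue, right); symbols are libraries and bars are means. Yolk genes average 15.6% of the IP and 2.50% of total RNA, while ribosomal protein genes average 7.44% and 17.3%.

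The called members of each functional group below are to be read beside all tested genes, of which 17.8% rose and 9.61% fell. With equal-sum scaling those shares were 11.1% and 40.2%. Of the functional groups examined, yolk transcripts took the largest share of the intestinal IP. Vitellogenins are large lipid-carrying proteins that intestinal cells secrete for uptake by oocytes. All 7 tested genes of yolk proteins and their export rose (median log2 4.22), and together they made up 15.6% ± 3.78 of the IP libraries and 2.50% ± 0.636 of total RNA (SD, n = 3 each; exact permutation test, two-sided, p = 0.1, the smallest that 3 against 3 libraries allow). vit-2 had 1109000, 1626000 and 1545000 normalized counts in the IP, against 65590, 99270 and 245800 in total RNA (log2 ratio 3.59, SE 0.59, adjusted p = 0.0034). vit-6 had 758100, 660700 and 1041000 in the IP and 60390, 59220 and 130700 in total RNA (log2 ratio 3.38, SE 0.49, adjusted p = 0.0017). vit-3, vit-4 and vit-5 are near-identical copies that counting can split, so their single values are uncertain. In replicate 3, vit-3 was low in both fractions, with 1071000, 2965000 and 276900 in the IP, against 49220, 92670 and 18810 in total RNA (log2 ratio 4.44, SE 0.93, adjusted p = 0.0099). vit-5 showed no such drop in total RNA: it had 1326000, 2482000 and 781600 in the IP and 72660, 107400 and 123700 in total RNA (log2 ratio 3.79, SE 0.56, adjusted p = 0.0019).

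Levels between genes were compared per kb of the longest annotated transcript. Of the 15 genes with the most IP signal per kb, 14 rose and 1, rpl-41.2, was not called. First came dct-16, a gene named as a target of the FOXO factor DAF-16 (chromosome V, 20497924 to 20499057), with a mean of 3119000 normalized counts per kb in the IP and 68820 in total RNA. Then followed the saposin-like genes spp-14 (1120000 per kb in the IP, 23540 in total RNA) and spp-5 (1094000 and 29870). C17F4.7, Y119D3B.21 and F22H10.3, known by clone names, the carbonic anhydrase gene cah-4, cpl-1 (cathepsin L), ilys-5 (an invertebrate-type lysozyme), spp-3, asp-1 (an aspartyl protease) and vit-5, vit-3 and vit-2 made up the rest. Many of these transcripts are short, from 0.201 kb for Y119D3B.21 to 0.381 kb for dct-16, while the vit-5 transcript has 4.87 kb. dct-16 varied widely between replicates, with 1035000, 2067000 and 462900 normalized counts in the IP and 30160, 39960 and 8547 in total RNA, and was lowest in replicate 3 of both fractions (log2 ratio 5.52, SE 0.74, adjusted p = 0.0012).

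Nearly all digestive proteases rose. Cysteine and aspartyl proteases of the cathepsin type break down bacterial protein in the gut lumen and in lysosomes. Of 25 tested members 23 rose and 0 fell (median log2 3.88), in every fit with 1 library left out and with equal-sum scaling too, and they held 7.28% ± 0.854 of the IP and 1.09% ± 0.204 of total RNA (SD, n = 3 each; exact permutation p = 0.1). cpl-1 had 544600, 375100 and 358000 normalized counts in the IP, against 17610, 20100 and 16020 in total RNA (log2 ratio 4.55, SE 0.35, adjusted p = 0.00018). asp-1 had 470400, 352200 and 346600 in the IP and 33110, 31810 and 50650 in total RNA (log2 ratio 3.36, SE 0.38, adjusted p = 0.00056). For both genes the IP libraries stayed above every total RNA library and within a narrow range. Among the cathepsin B-like genes, cpr-6 stood at 269900, 432400 and 189900 in the IP and 11760, 17310 and 9685 in total RNA (log2 ratio 4.49, SE 0.42, adjusted p = 0.00028). asp-17 rose most in this group, with 2575, 3868 and 1480 in the IP, against 68.9, 81.9 and 42.8 in total RNA (log2 ratio 5.28, SE 0.46, adjusted p = 0.00022). cpr-2 and asp-16 were not called.

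Genes of antimicrobial defence carried some of the highest ratios. Lysozymes cut bacterial cell walls and saposin-like caenopores open bacterial membranes, as shown for SPP-5 in this worm. All 13 tested lysozymes rose (median log2 4.76; 11 to 13 when 1 library was left out and 12 with equal-sum scaling), and 15 of 22 tested saposin-like genes rose with 0 falling (median 3.74; 12 rose and 2 fell with equal-sum scaling). Summed, lysozymes held 1.83% ± 0.586 of the IP and 0.152% ± 0.0583 of total RNA, and saposin-like genes 3.01% ± 1.51 and 0.230% ± 0.0381 (SD, n = 3 each; exact permutation p = 0.1 for both). lys-8 was even across libraries, with 60550, 55840 and 52020 in the IP, against 1756, 2278 and 2035 in total RNA (log2 ratio 4.8, SE 0.26, adjusted p = 0.00013). lys-10, a rarer member, had 701, 901 and 327 in the IP and 11.3, 11.8 and 5.17 in total RNA (log2 ratio 5.90, SE 0.62, adjusted p = 0.00041). spp-5 stood at 322300, 680100 and 211800 in the IP and 8697, 13640 and 10820 in total RNA (log2 ratio 5.05, SE 0.48, adjusted p = 0.0003). The group means hide a spread within the IP, where spp-14 ran from 99160 in replicate 3 to 864000 in replicate 2 (log2 ratio 5.10, SE 0.75, adjusted p = 0.0019).

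C-type lectins bind sugars, and many are induced by infection in this worm. Of 173 listed members 117 passed the filter, and of these 64 rose and 5 fell (median log2 3.29; 59 and 12 with equal-sum scaling). The falls numbered 3 without total RNA replicate 2 or 3. clec-63 had 122900, 197400 and 125500 in the IP, against 8195, 9267 and 25290 in total RNA (log2 ratio 3.54, SE 0.49, adjusted p = 0.0013), and clec-166 2910, 5538 and 5197 in the IP and 58.9, 79.9 and 181 in total RNA (log2 ratio 5.51, SE 0.48, adjusted p = 0.00022). The family was split, since clec-87 and clec-91 went the other way. clec-87 had 7546, 4245 and 6211 in the IP and 22740, 19570 and 19100 in total RNA (log2 ratio -1.81, SE 0.30, adjusted p = 0.0035). Of 19 signalling genes of innate immunity 7 rose and 0 fell, with a median log2 of 0.87 (-0.32 with equal-sum scaling, under which 5 rose and 1 fell). Those that rose were zip-2, fshr-1, kgb-1, irg-1, irg-4, irg-5 and irg-7, of which irg-1, irg-4, irg-5 and irg-7 are infection response genes. irg-7 had 7083, 10210 and 5835 in the IP and 1053, 1019 and 1374 in total RNA (log2 ratio 2.72, SE 0.30, adjusted p = 0.00051).

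**Figure D2:**
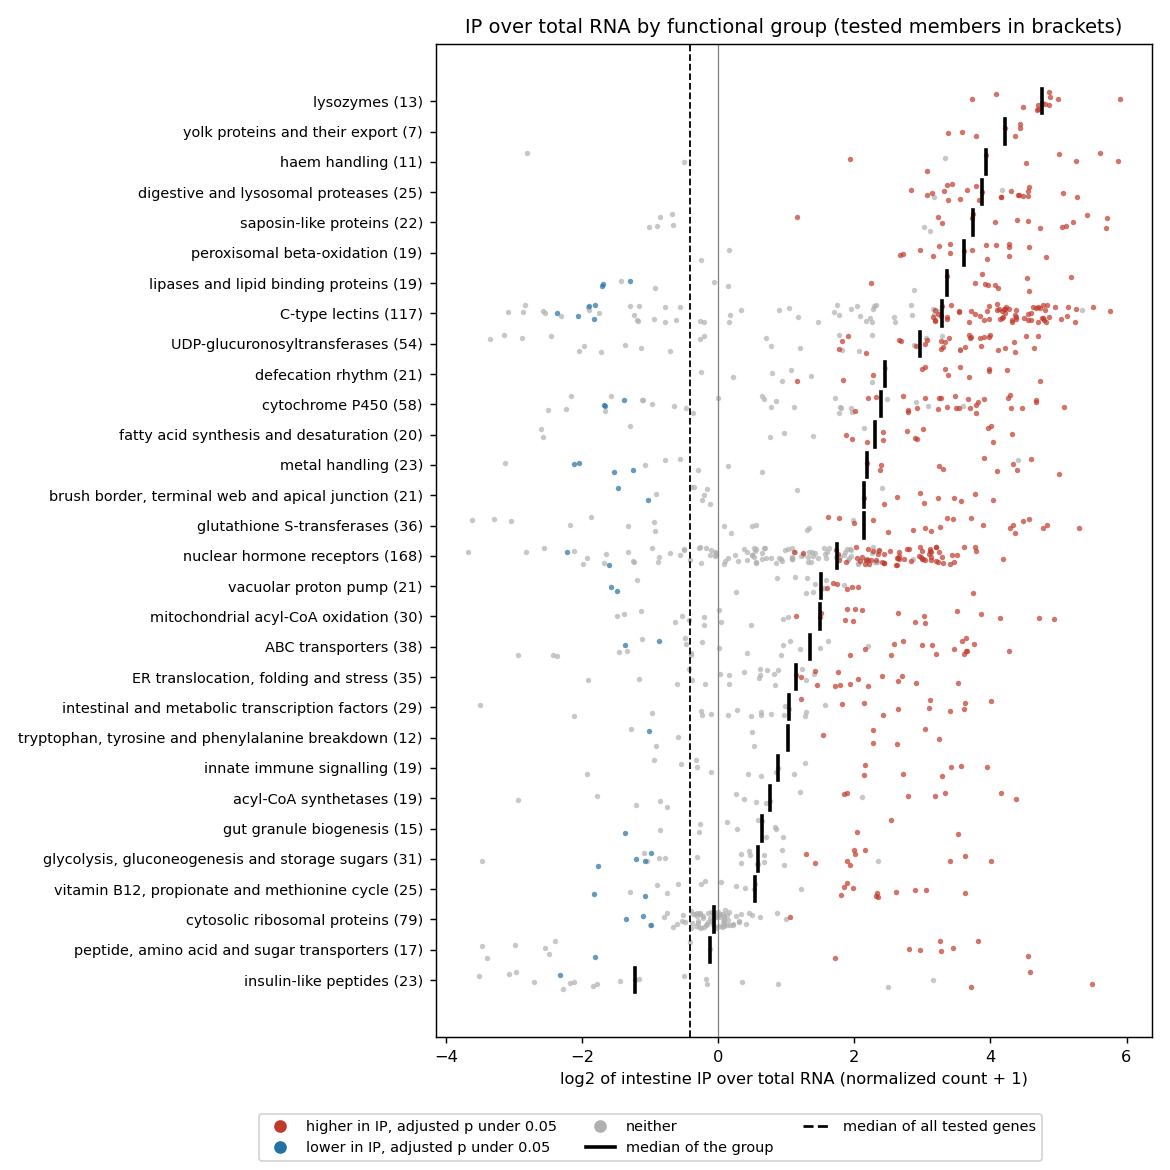
Log2 of intestine IP over total RNA for each tested member of 30 functional groups, ordered by group median (black bars); red and blue points passed the test, grey ones did not, and the dashed line is the median of all tested genes, -0.42. Lysozymes lie at the top (median 4.76) and insulin-like peptides at the bottom (median -1.23); with equal-sum scaling all points lie lower and the medians of 7 groups turn from above 0 to below it.

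Genes of fat metabolism rose in several pathways. Peroxisomal beta-oxidation, which in this worm also trims the side chains of ascaroside pheromones, had 17 of 19 members higher and 0 lower (median log2 3.61; 16 higher and 2 lower with equal-sum scaling). dhs-28, a dehydrogenase of that cycle, had 24200, 18360 and 21070 in the IP, against 1327, 1218 and 1573 in total RNA (log2 ratio 3.95, SE 0.26, adjusted p = 0.00014). daf-22, its thiolase, stood at 21970, 55120 and 16130 in the IP and 926, 1556 and 1013 in total RNA (log2 ratio 4.57, SE 0.47, adjusted p = 0.00041). prx-10 and prx-19 were the members that were not called. Of 20 genes of fatty acid synthesis and desaturation 13 rose and 0 fell (median 2.3; 8 rose and 2 fell with equal-sum scaling). fat-7, a stearoyl-CoA desaturase, had 41380, 35180 and 17950 in the IP and 2620, 1853 and 1432 in total RNA (log2 ratio 3.96, SE 0.40, adjusted p = 0.00035), and elo-6, an elongase, 70130, 54580 and 34120 in the IP and 3532, 2271 and 2057 in total RNA (log2 ratio 4.32, SE 0.37, adjusted p = 0.00022). fat-2, the delta-12 desaturase, was less separate, with 43110, 14610 and 40740 in the IP and 6361, 5115 and 13080 in total RNA (log2 ratio 1.97, SE 0.53, adjusted p = 0.027), and did not pass with equal-sum scaling (log2 0.78, adjusted p = 0.30).

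Lipid carriers were divided. Of 19 lipases and lipid binding proteins 11 rose and 3 fell (median log2 3.36; 7 and 6 with equal-sum scaling), and 7 rose without IP replicate 3, without total RNA replicate 1 or without total RNA replicate 2. lbp-6, a fatty acid binding protein of the intestine, had 111800, 144500 and 71290 in the IP, against 5070, 5558 and 3084 in total RNA (log2 ratio 4.56, SE 0.38, adjusted p = 0.00021). The 3 that fell were lbp-1, lbp-2 and lbp-9, of which 1 fell without IP replicate 1 or without total RNA replicate 2. lbp-2 had 906, 948 and 907 in the IP and 2788, 4635 and 2027 in total RNA (log2 ratio -1.69, SE 0.34, adjusted p = 0.0088). The lysosomal-type lipase gene lipl-5 stood at 51520, 81890 and 50160 in the IP and 3114, 3752 and 5743 in total RNA (log2 ratio 3.87, SE 0.35, adjusted p = 0.00025). Of 30 genes of mitochondrial acyl-CoA oxidation 17 rose and 0 fell (median 1.50; 9 and 3 with equal-sum scaling), and 7 of 19 acyl-CoA synthetases rose with 0 falling (median 0.76, or -0.43 with equal-sum scaling, under which 4 rose and 1 fell). acdh-1, the acyl-CoA dehydrogenase that starts the propionate shunt, had 100200, 55910 and 65460 in the IP and 12630, 9009 and 7899 in total RNA (log2 ratio 2.89, SE 0.35, adjusted p = 0.00072).

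Genes that handle foreign compounds rose in large families. Cytochromes P450 oxidise such compounds, and UDP-glucuronosyltransferases and glutathione S-transferases conjugate them for export. Of 54 tested UDP-glucuronosyltransferases 31 rose and 0 fell (median log2 2.97), of 58 cytochromes P450 28 rose and 3 fell (2.40), and of 36 glutathione S-transferases 21 rose and 0 fell (2.14). With equal-sum scaling these counts were 24 and 5, 20 and 8, and 15 and 6. ugt-62 had 5986, 5808 and 2427 in the IP, against 254, 197 and 106 in total RNA (log2 ratio 4.65, SE 0.48, adjusted p = 0.00039). cyp-35A2 had 6239, 3906 and 2764 in the IP and 329, 238 and 122.2 in total RNA (log2 ratio 4.25, SE 0.46, adjusted p = 0.00046). gst-6 rose most among the transferases of glutathione, with 2196, 3189 and 1322 in the IP and 45.4, 45.6 and 69.5 in total RNA (log2 ratio 5.30, SE 0.43, adjusted p = 0.00019). In all of these the groups stood clear of each other, while replicate 3 was lowest in the IP for ugt-62, cyp-35A2 and gst-6. cyp-31A2, which acts in eggshell formation, went the other way, with 462, 329 and 411 in the IP and 1362, 1340 and 1123 in total RNA (log2 ratio -1.68, SE 0.29, adjusted p = 0.0041). It and the other fallen members, cyp-31A3 and cyp-31A5, are close copies that counting can split, and 1 fell without total RNA replicate 1 or 2. Of 38 ABC transporters 16 rose and 2 fell (median 1.34; 12 and 10 with equal-sum scaling, and 0 falls without total RNA replicate 1 or 2). haf-9, an ABC transporter of gut granules, had 5198, 3354 and 5999 in the IP and 291, 262 and 672 in total RNA (log2 ratio 3.66, SE 0.43, adjusted p = 0.00065).

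C. elegans cannot make haem and takes it up in the intestine. Of 11 haem handling genes 8 rose and 0 fell (median log2 3.93; 7 rose and 1 fell with equal-sum scaling, median 2.74). hrg-4, the importer on the luminal side, had 3536, 9370 and 1101 in the IP, against 113, 113.9 and 23.1 in total RNA (log2 ratio 5.61, SE 0.88, adjusted p = 0.0026). hrg-1, which moves haem out of lysosomes, had 4108, 5104 and 3215 in the IP and 399, 491 and 581 in total RNA (log2 ratio 3.07, SE 0.30, adjusted p = 0.00032). hrg-3, a secreted haem carrier, had 497, 672 and 188 in the IP and 12.1, 4 and 3.86 in total RNA (log2 ratio 5.87, SE 0.74, adjusted p = 0.0009). hrg-1 was the narrowest of these in both fractions, while hrg-4 ran from 1101 to 9370 within the IP.

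Among 23 tested metal handling genes 11 rose and 4 fell (median log2 2.19; 8 and 9 with equal-sum scaling). ftn-2, a ferritin heavy chain, had 73770, 71010 and 62910 in the IP, against 3051, 3415 and 3449 in total RNA (log2 ratio 4.39, SE 0.25, adjusted p = 0.00013), and mtl-2, an intestinal metallothionein, 5453, 6047 and 5001 in the IP and 255, 386 and 329 in total RNA (log2 ratio 4.10, SE 0.28, adjusted p = 0.00014). Both were steady between replicates. mtl-1, the other metallothionein, was not: it had 395, 2643 and 7964 in the IP and 11.5, 155 and 449.5 in total RNA, which missed the threshold without pairing (log2 4.41, adjusted p = 0.056) and passed with the replicate block (adjusted p = 8.6e-05). The 4 that fell were all zinc transporter genes of the ZIP family (zipt-7.1, zipt-11, zipt-13 and zipt-15), none of which fell without total RNA replicate 1. zipt-7.2, zipt-2.1 and zipt-2.3 of that family rose.

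Nutrient uptake and cell architecture showed a set of strong rises within mixed groups. Of 17 peptide, amino acid and sugar transporters 8 rose and 1, aat-9, fell, with a median log2 of -0.12 (-1.30 with equal-sum scaling, under which 6 rose and 3 fell). aat-9 was not called without IP replicate 1 or any 1 of the total RNA libraries. pept-1, the proton-coupled transporter of short peptides, had 7046, 3168 and 4520 in the IP, against 580, 409.7 and 323 in total RNA (log2 ratio 3.45, SE 0.38, adjusted p = 0.00049). Of 21 genes of the brush border, terminal web and apical junction 10 rose and 2, hmr-1 and par-3, fell (median 2.15; 6 and 6 with equal-sum scaling, and 0 falls without total RNA replicate 1). act-5, the actin of microvilli, had 129600, 40350 and 91910 in the IP and 6521, 4920 and 3424 in total RNA (log2 ratio 4.03, SE 0.48, adjusted p = 0.00067), and ifb-2, an intermediate filament of the terminal web, 17000, 16740 and 18230 in the IP and 1260, 1053 and 2327 in total RNA (log2 ratio 3.57, SE 0.34, adjusted p = 0.0003). The risen members were act-5, eps-8, ifo-1, bbln-1, ajm-1 and the 5 intermediate filament genes ifb-2, ifc-1, ifc-2, ifd-1 and ifd-2. par-3, a polarity gene of many epithelia, had 1127, 690 and 1313 in the IP and 2870, 2325 and 3304 in total RNA (log2 ratio -1.48, SE 0.33, adjusted p = 0.013). Of 15 genes of gut granule biogenesis, lysosome-related organelles of this tissue, 3 rose (glo-1, pgp-2 and lmp-1) and 1 fell (snpn-1), with a median of 0.65, or -0.49 with equal-sum scaling (1 and 5 called). Without IP replicate 2, 5 rose and 0 fell. Of all tested genes 17.8% rose and 9.61% fell in the main test, and the main counts of this group as listed lie near those shares. The list leaves out haf-9, a gut granule gene that rose and is counted above with the ABC transporters. glo-1, the Rab GTPase specific to these granules, had 744, 953 and 702 in the IP and 56.8, 78.2 and 71.7 in total RNA (log2 ratio 3.52, SE 0.36, adjusted p = 0.0004).

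The intestine also paces defecation through calcium waves that pass from cell to cell. Of 21 genes of this rhythm 13 rose and 0 fell (median log2 2.45; 10 and 1 with equal-sum scaling). inx-16, a gap junction gene, had 7750, 8566 and 5695 in the IP, against 355, 319.5 and 480.5 in total RNA (log2 ratio 4.25, SE 0.30, adjusted p = 0.00014). nlp-40, the peptide that the gut releases to start expulsion, had 39380, 19070 and 28640 in the IP and 2281, 2097 and 2092 in total RNA (log2 ratio 3.69, SE 0.32, adjusted p = 0.00022). pbo-1 had 13950, 23960 and 9922 in the IP and 521, 659 and 521 in total RNA (log2 ratio 4.72, SE 0.36, adjusted p = 0.00018). itr-1, the receptor channel that releases calcium, also rose, as did the cation channels gon-2 (log2 -0.04 with equal-sum scaling) and gtl-1, the potassium channel kqt-3, pbo-4, flr-1, acd-3 and the secretion genes aex-1, aex-4 and aex-5.

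**Figure D3:**
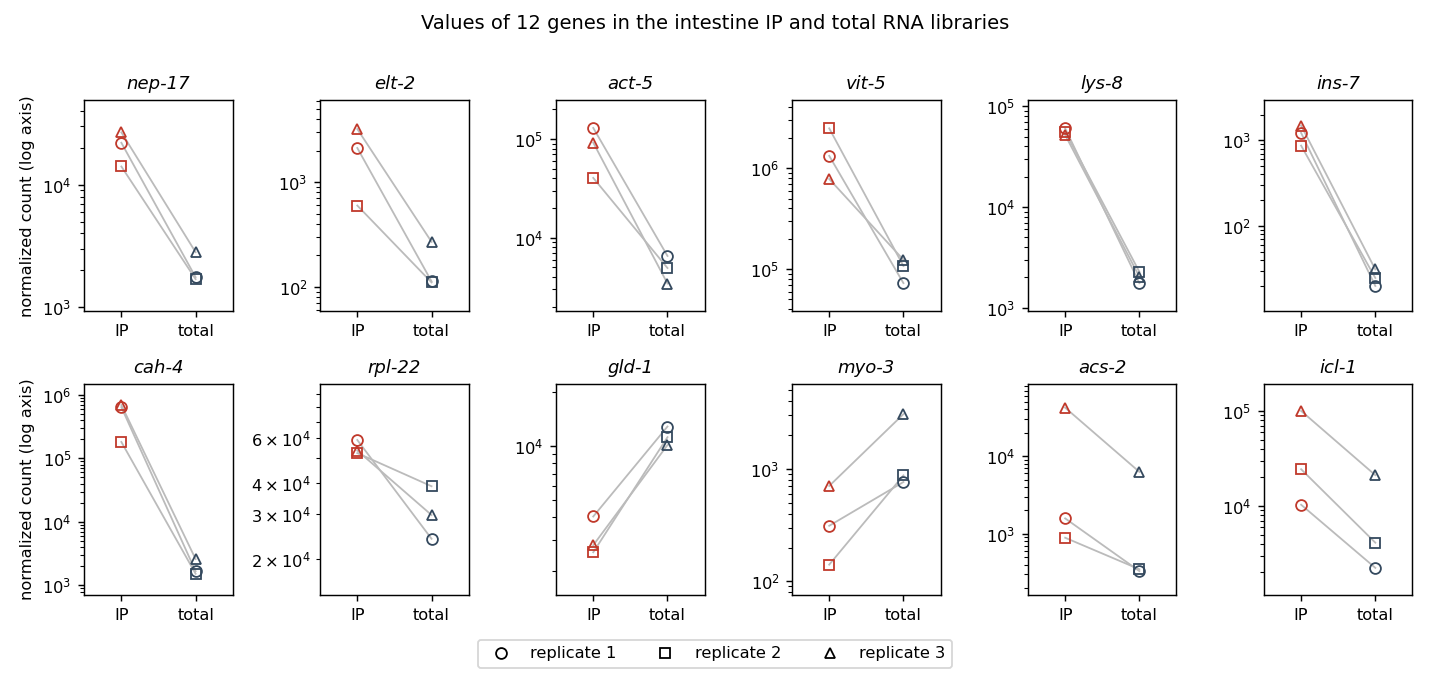
Normalized counts (log axis, a scale of its own in each panel) of 12 genes in the 3 intestine IP libraries (red, left) and the 3 total RNA libraries (blue, right), with lines joining libraries of the same replicate number. acs-2 and icl-1 are far higher in replicate 3 of both fractions, while lys-8 and ins-7 differ little between replicates.

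Transcription factors were among the genes that rose. Of 29 intestinal and metabolic transcription factors 11 rose and 0 fell (median log2 1.04, or 0.02 with equal-sum scaling, under which 7 rose and 4 fell): elt-2, elt-7, nhr-8, nhr-68, nhr-80, nhr-114, pqm-1, mxl-3, zip-2, xbp-1 and sbp-1. pqm-1, a zinc finger factor, had 7573, 4424 and 14420 in the IP, against 423, 333 and 814 in total RNA (log2 ratio 4.01, SE 0.50, adjusted p = 0.00087). nhr-68, a regulator of propionate metabolism, had 4971, 2898 and 4105 in the IP and 378, 265 and 319 in total RNA (log2 ratio 3.61, SE 0.31, adjusted p = 0.00022). Of 168 tested nuclear hormone receptors 64 rose and 2 fell (median 1.74). That count was 104 without IP replicate 2, 40 without total RNA replicate 1, 39 without total RNA replicate 2 and 28 with equal-sum scaling, under which 7 fell. nhr-176 had the largest rise among receptors with a mean of at least 100, at 766, 986 and 491 in the IP and 36.2, 38.8 and 41.4 in total RNA (log2 ratio 4.18, SE 0.43, adjusted p = 0.00039).

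Insulin-like peptides were mostly low in both fractions. Of 23 tested genes 3 rose, ins-7, ins-12 and ins-35, and 1 fell, ins-30 (median log2 -1.23). Of all tested genes 17.8% rose and 9.61% fell. ins-7, known as an insulin made in the intestine, had 1224, 869.6 and 1493 in the IP, against 20, 24.8 and 31.1 in total RNA (log2 ratio 5.50, SE 0.42, adjusted p = 0.00018). ins-35 had 118.6, 181 and 568 in the IP and 10.9, 13.8 and 30.6 in total RNA (log2 ratio 3.71, SE 0.76, adjusted p = 0.0089). The fall of ins-30 was lost when any 1 library other than IP replicate 2 was left out; without IP replicate 2, 5 rose and 3 fell, with the replicate block 3 and 4, and with equal-sum scaling 3 and 8 (median -2.40).

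Central metabolism gave pairs of related enzymes that went opposite ways. Of 31 genes of glycolysis, gluconeogenesis and storage sugars 10 rose and 4 fell (median log2 0.58, or -0.60 with equal-sum scaling, under which 4 rose and 9 fell; 16 and 6 without IP replicate 2, and 13 and 9 with the replicate block). Of the falls, 1 was called without IP replicate 1 or total RNA replicate 2 and 2 without total RNA replicate 1 or 3. Of the aldolases, aldo-2 had 46250, 41300 and 50250 in the IP, against 15710, 16690 and 24910 in total RNA (log2 ratio 1.29, SE 0.31, adjusted p = 0.018), while aldo-1 had 565, 944 and 634 in the IP and 1379, 1815 and 1692 in total RNA (log2 ratio -1.22, SE 0.31, adjusted p = 0.022). Of the phosphoenolpyruvate carboxykinases, pck-2 had 36980, 30390 and 115100 in the IP and 8782, 10320 and 22780 in total RNA (log2 ratio 1.99, SE 0.58, adjusted p = 0.038), while pck-1 had 942, 1020 and 915 in the IP and 1572, 2370 and 2225 in total RNA (log2 ratio -1.08, SE 0.28, adjusted p = 0.023). The rises of aldo-2 and pck-2 did not pass with equal-sum scaling (log2 0.10 and 0.80, adjusted p = 0.81 and 0.32), and the falls did. pyk-2, a pyruvate kinase, rose most in this group, with 9709, 12040 and 10660 in the IP and 562, 640.4 and 817 in total RNA (log2 ratio 4.01, SE 0.26, adjusted p = 0.00014).

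Of 25 genes of vitamin B12, propionate and the methionine cycle 11 rose and 2 fell (median log2 0.53, or -0.65 with equal-sum scaling, under which 6 rose and 6 fell). Members of the B12-independent propionate shunt were among the rises, with hphd-1 at 52650, 59150 and 30790 in the IP, against 4143, 4881 and 2550 in total RNA (log2 ratio 3.62, SE 0.38, adjusted p = 0.00041). The falls were the S-adenosylmethionine synthetase genes sams-3 and sams-4, and sams-3 had 1108, 364 and 1684 in the IP and 3700, 2453 and 3361 in total RNA (log2 ratio -1.83, SE 0.54, adjusted p = 0.039). Neither fell without IP replicate 1, total RNA replicate 1 or total RNA replicate 2, and sams-3 and sams-4 are similar in sequence, so reads can be split between them. In the breakdown of aromatic amino acids 6 of 12 genes rose and 1, pah-1, fell (median 1.03, or -0.15 with equal-sum scaling, under which 4 rose and 4 fell); pah-1 was not called when any 1 library other than IP replicate 2 was left out. hpd-1, a dioxygenase of tyrosine breakdown, had 16030, 9852 and 9170 in the IP and 1669, 1451 and 1060 in total RNA (log2 ratio 3.04, SE 0.32, adjusted p = 0.00044).

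Some genes of the secretory pathway rose as well. Of 35 genes of ER translocation, folding and stress 15 rose and 0 fell (median log2 1.15, or -0.04 with equal-sum scaling, under which 5 rose and 4 fell; 9 rose without total RNA replicate 1 or 2). sec-61.B, a subunit of the translocation channel, had 105500, 100100 and 53680 in the IP, against 7850, 9495 and 4933 in total RNA (log2 ratio 3.53, SE 0.40, adjusted p = 0.00054). trap-1, a subunit of the translocon-associated complex, had 74880, 29170 and 44650 in the IP and 7266, 5830 and 5499 in total RNA (log2 ratio 2.90, SE 0.39, adjusted p = 0.0011).

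Vacuolar proton pumps acidify lysosomes and the apical side of the gut. Of 21 subunit genes 7 rose and 2 fell (median log2 1.50), but the count of rises hung on single libraries: 17 rose without IP replicate 2 and 16 with the replicate block, and 2 to 5 without any other 1 library. With equal-sum scaling 1 rose and 3 fell (median 0.31). vha-6, the a subunit of the intestine, had 27600, 35240 and 16350 in the IP, against 1973, 2157 and 1575 in total RNA (log2 ratio 3.74, SE 0.34, adjusted p = 0.00026). vha-7, another a subunit, went the other way with 496, 267 and 329 in the IP and 1608, 822 and 892 in total RNA (log2 ratio -1.58, SE 0.39, adjusted p = 0.021), and vha-5 also fell; neither fell without total RNA replicate 1. vha-10, the G subunit, had 22620, 3596 and 17470 in the IP and 3756, 2582 and 3121 in total RNA, where IP replicate 2 lay far below the other IP libraries (log2 1.85, adjusted p = 0.067; 0.00077 without it).

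Ribosomal protein transcripts took a smaller share of the IP. Of 79 tested genes 1 rose, rpl-25.1, and 3 fell, rpl-11.1, rpl-25.2 and rps-27, with a median log2 of -0.07 (-1.26 with equal-sum scaling, under which 0 rose and 71 fell). With the replicate block 4 rose and 5 fell. In sum they held 6.90%, 7.56% and 7.87% of the IP libraries, against 14.8%, 19.8% and 17.3% of total RNA (exact permutation p = 0.1). A share within a library does not depend on the scaling, but it depends on the shares of all other genes. rpl-11.1 had 10780, 22780 and 10100 in the IP and 27420, 46710 and 33060 in total RNA (log2 ratio -1.36, SE 0.40, adjusted p = 0.04), and rpl-25.1 10170, 15710 and 10010 in the IP and 4899, 4516 and 8000 in total RNA, at the threshold (log2 1.06, SE 0.33, adjusted p = 0.05; -0.13 with equal-sum scaling). The falls of the group were not called without IP replicate 1 or any 1 of the total RNA libraries, 1 was called without IP replicate 3 and 5 without IP replicate 2. The rise of rpl-25.1 was lost without IP replicate 1 or 3 or total RNA replicate 1 or 2.

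Among genes with a mean of at least 1000 and a symbol other than a clone name, the 10 largest rises were those of pud-1.1, cah-4, cpf-1, sysm-1, spp-23, spp-2, skr-4, dod-19, hrg-4 and nspg-11. cah-4 lies on the X chromosome (13542574 to 13544599) and had 639800, 181300 and 690800 in the IP, against 1671, 1525 and 2596 in total RNA (log2 ratio 7.84, SE 0.55, adjusted p = 0.00014). cpf-1, which encodes a subunit of the complex that cleaves and polyadenylates pre-mRNA (chromosome II, 8600449 to 8602440), had 147200, 233500 and 115600 in the IP and 2578, 2679 and 1876 in total RNA (log2 ratio 6.08, SE 0.35, adjusted p = 0.00013). skr-4, a Skp1-related gene, had 11520, 31030 and 13780 in the IP and 263, 394 and 360.4 in total RNA (log2 ratio 5.67, SE 0.41, adjusted p = 0.00015). pud-1.1 had the largest ratio of these, but it is a near-identical copy of pud-1.2, and its total RNA values of 3.04, 1632 and 0 show how counting can split them. The 8 largest falls were those of puf-6, gln-5, act-1, memi-3, fbxa-215, cey-2, rif-1.1 and gld-3, of which puf-6, memi-3, cey-2 and gld-3 are known from the germline and act-1 has near-identical copies. cey-2, a germline Y-box protein, had 9193, 6399 and 9661 in the IP and 38120, 35700 and 39020 in total RNA (log2 ratio -2.18, SE 0.29, adjusted p = 0.001). puf-6 rested on fewer reads in IP replicate 2, with 1152, 169 and 914 in the IP and 3912, 2482 and 2788 in total RNA (log2 ratio -2.41, SE 0.68, adjusted p = 0.033).

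The intestine ratio was then set against the ratios of 3 other ribosome IPs of the series, each with 3 IP and 3 total RNA libraries of day 1 adults: body wall muscle (WBM1339, wbmIs118, tag under the myo-3 promoter), neurons B (WBM1471, wbmIs133, rab-3 promoter) and a ubiquitous IP (MSD470, rpl-22(wbm58), the endogenous gene tagged). The test was the interaction term over 12 libraries, since each table was normalized separately. Against muscle, the intestine ratio was higher for 1665 of 12958 genes (12.8%) and lower for 1493 (11.5%). Against neurons B it was higher for 1670 of 13459 (12.4%) and lower for 1676 (12.5%), or 613 and 2077 with equal-sum scaling and 2812 and 2089 with the replicate block. Against the ubiquitous IP it was higher for 2338 of 12474 (18.7%) and lower for 1147 (9.2%), or 1115 and 5721 with equal-sum scaling and 2937 and 2369 with the replicate block; without intestine IP replicate 2, intestine IP replicate 3 and intestine total RNA replicate 1, 2039, 1847 and 745 were lower. Of the 2427 genes that rose in the intestine IP, 1584 of 2272 tested were higher than in muscle, 1275 of 2412 than in neurons B and 1958 of 2238 than in the ubiquitous IP. Of 2208 tested in all of them, 1013 were higher than in each. The 2427 genes were chosen by the intestine ratio, and the same ratio from the same libraries enters each difference. These shares are thus raised by the choice itself.

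Intestine markers set these experiments apart. Their median log2 was 3.63 in the intestine IP, -0.77 in the muscle IP, 1.26 in the neurons B IP and -0.05 in the ubiquitous IP. The intestine ratio was higher for 26 of 26 markers against muscle and against the ubiquitous IP, and for 20 of 26 against neurons B. Lysozymes behaved alike: 10 of 10 tested were higher than in muscle, 10 of 10 than in the ubiquitous IP and 9 of 13 than in neurons B, where 1 was lower. Muscle markers were lower in the intestine than in the muscle IP for 24 of 26 genes, and neuron markers lower than in neurons B for 25 of 26. Germline markers lay below total RNA in all of these IPs, with medians of -1.63 in intestine, -0.62 in muscle, -2.50 in neurons B and -0.63 in the ubiquitous IP. That neurons B also held intestine markers above total RNA touches each comparison with it, and its part in those differences was not tested.

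**Figure D4:**
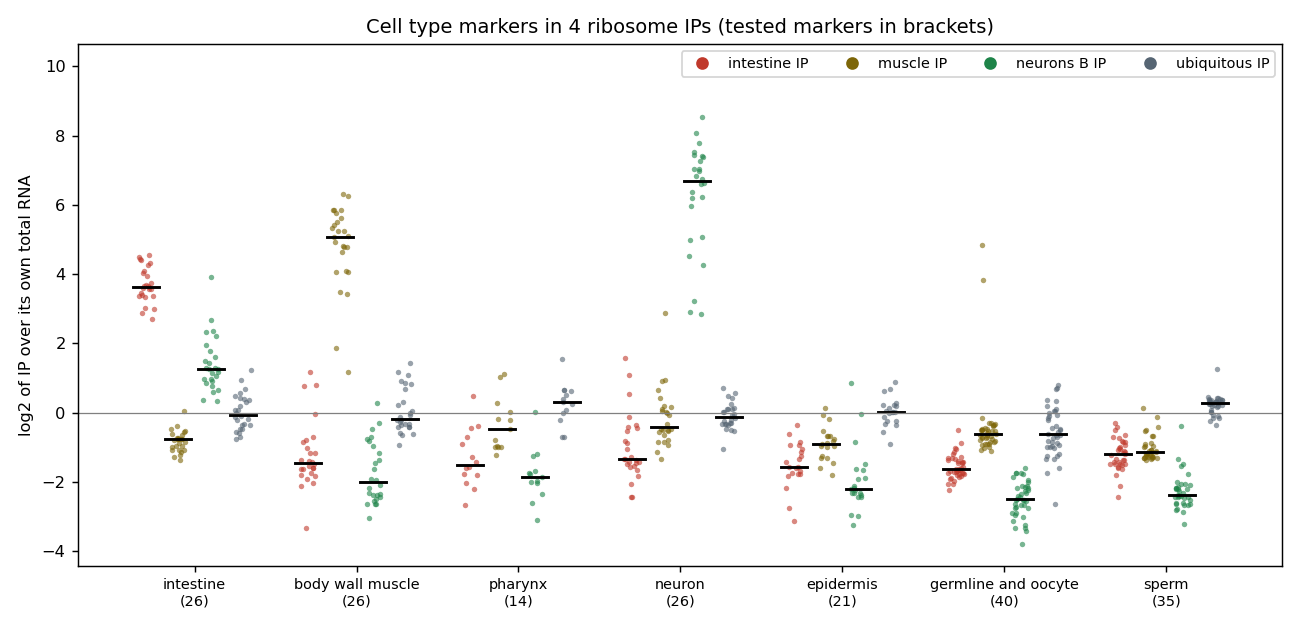
Log2 of IP over its own total RNA for markers of 7 tissues in the intestine, muscle, neurons B and ubiquitous IPs, left to right within each group; points are genes and black bars medians. Intestine markers have medians of 3.63, -0.77, 1.26 and -0.05; the 4 tables were scaled separately.

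The genes named for these differences come from the 6 highest and the 6 lowest among those with a symbol other than a clone name and a mean of at least 1000 in both tables, which leaves out larger differences of genes with a lower mean in the other table. Against muscle, dod-19, named as downstream of DAF-16, had a log2 ratio of 5.62 in the intestine IP and -1.84 in the muscle IP (difference 7.47, SE 0.66, adjusted p = 4.4e-06). lys-8 had 4.8 and -1.44 in the same order (6.24, SE 0.43, adjusted p = 7.5e-07), and the cathepsin A-like gene ctsa-1.2 had 5.10 and -1.61 (6.71, SE 0.68, adjusted p = 1.1e-05). Lower in the intestine were cpn-3, a calponin gene, with -2.11 in the intestine IP and 6.26 in the muscle IP (-8.37, SE 0.63, adjusted p = 1.4e-06), pat-10, body wall troponin C, with -1.79 and 6.32 (-8.12, SE 0.58, adjusted p = 1.0e-06), and csq-1, calsequestrin, with -1.64 and 5.86 (-7.50, SE 0.43, adjusted p = 2.1e-07).

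Against neurons B, clec-41 had a log2 ratio of 4.14 in the intestine IP and -0.08 in neurons B (4.22, SE 0.41, adjusted p = 1.5e-05), and the glycosidase gene aagr-2 had 4.05 and 0.42 (3.63, SE 0.52, adjusted p = 0.00031). Lower in the intestine were egl-21, the carboxypeptidase that trims neuropeptides, with 1.08 and 6.59 (-5.51, SE 0.63, adjusted p = 5.5e-05), and the metabolic genes aldo-1, with -1.22 and 4.27 (-5.48, SE 0.45, adjusted p = 3.5e-06), and pck-1, with -1.08 and 3.68 (-4.76, SE 0.46, adjusted p = 1.5e-05). The aldo-1 and pck-1 transcripts that fell on intestinal ribosomes were thus high on neuronal ones. In the muscle IP aldo-1 had 5.47 and pck-1 5.08. Of 22 insulin-like peptides 15 were lower than in neurons B and 1 was higher.

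Against the ubiquitous IP, cah-4 had a log2 ratio of 7.84 in the intestine IP and 0.32 in the ubiquitous one (7.52, SE 0.61, adjusted p = 6.2e-06), and cpf-1 had 6.08 and -0.69 (6.77, SE 0.35, adjusted p = 9.6e-07). Both were also above total RNA in the other promoter-driven strains: cah-4 at 4.28 in muscle and 5.70 in neurons B, and cpf-1 at 1.84 and 3.31. In libraries, cah-4 had 60140, 95870 and 77100 in the muscle IP and 266000, 411400 and 257000 in neurons B, but 6417, 6224 and 7182 in the ubiquitous IP, against 4672, 4880 and 6484 in the total RNA of that strain. Of genes with an IP mean above 1000, 3 had log2 above 3 in the intestine, muscle and neurons B IPs: cah-4, F18C12.3 and D2007.1, a rule set after the values were seen. F18C12.3 had 333600, 647900 and 114900 in the intestine IP, against 1755, 1932 and 575 in total RNA (log2 ratio 7.87, SE 0.70, adjusted p = 0.00024). clec-41 (difference 6.19, SE 0.34, adjusted p = 9.6e-07) and nspg-6 (5.81, SE 0.61, adjusted p = 3.4e-05) were also higher in the intestine. Lower in the intestine than in the ubiquitous IP were mlc-2, a myosin light chain (-2.67, SE 0.42, adjusted p = 0.00052), perm-2 of the eggshell (-2.39, SE 0.33, adjusted p = 0.00023) and far-2, a lipid binding protein (-2.31, SE 0.33, adjusted p = 0.00032), in a comparison whose share of lower genes depends on scaling.

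Called genes were unevenly placed. On chromosomes V and X, 23.6% and 22.2% of tested genes rose and 7.97% and 5.08% fell, whereas on chromosome I 12.2% rose and 13% fell. Chromosomes II, III and IV lay between, with 15.7%, 14.2% and 18.7% higher. With equal-sum scaling chromosomes V and X still had the most rises (16.1% and 13.9%) and the fewest falls (33.5% and 26.2%). Of 12 mitochondrially encoded genes 0 rose and 4 fell. With equal-sum scaling 12 of them fell, as did 40.2% of all tested genes. By annotated transcript length, 9.36% rose and 12.2% fell in the longest quintile (2.28 to 45.9 kb), against 20.6% and 5.47% in the shortest (0.03 to 0.764 kb). Lectins, receptors and transferases described above are counted in these shares, and their part in the pattern was not tested.

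**Figure D5:**
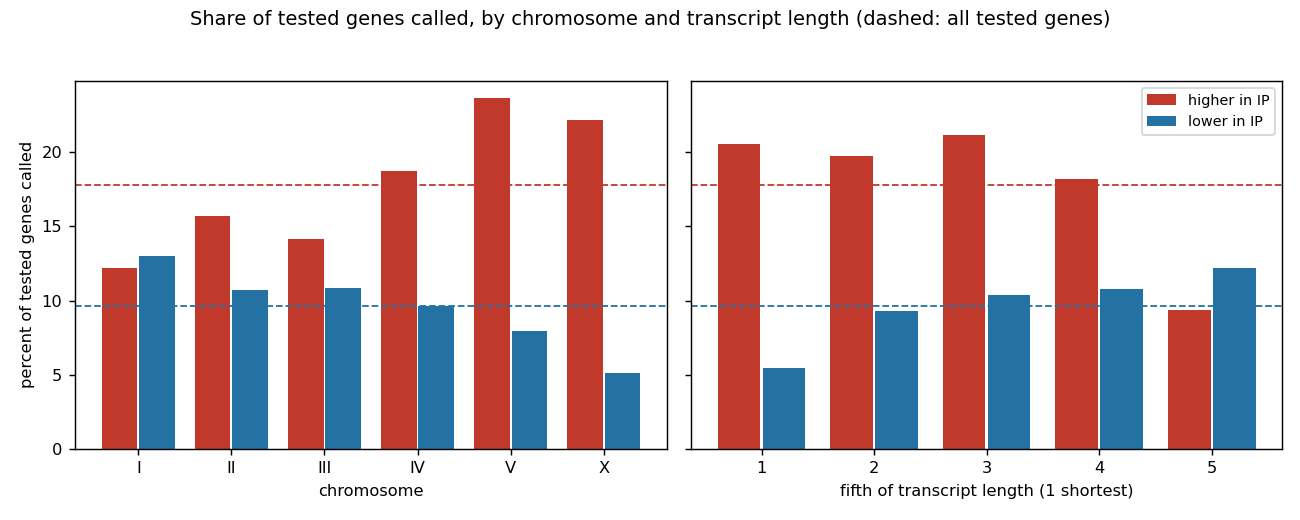
Percent of tested genes higher (red) and lower (blue) in the intestine IP, by chromosome (left) and by quintile of annotated transcript length (right); dashed lines are the values over all tested genes, 17.8% and 9.61%. Chromosomes V and X have the most rises and the fewest falls.

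A group of genes was high in replicate 3 of both fractions. At a mean of at least 100, 110 genes were 4-fold or more higher in replicate 3 than in replicates 1 and 2, in IP and total RNA alike, a rule chosen after the values were seen. By the same rule 0 genes were higher in replicate 1 and 0 in replicate 2. acs-2, an acyl-CoA synthetase gene known to be induced by fasting, had 1577, 888 and 42230 in the IP and 329, 348 and 6271 in total RNA. icl-1, the glyoxylate cycle gene, had 10320, 24400 and 100200 in the IP and 2233, 4111 and 21110 in total RNA. Within pairs the ratio moved less than the level, at log2 2.26, 1.35 and 2.75 for acs-2 and 2.21, 2.57 and 2.25 for icl-1 in replicates 1, 2 and 3. Neither was called without pairing (adjusted p = 0.34 for acs-2 and 0.12 for icl-1), and both were with the replicate block (adjusted p = 0.0018 and 0.00024). fmo-2, a flavin monooxygenase gene, had 914, 2375 and 23960 in the IP and 51.5, 101 and 1726 in total RNA, with pair ratios of 4.12, 4.55 and 3.80. The alcohol dehydrogenase gene adh-1 had 8902, 4229 and 212500 in the IP and 1330, 1660 and 28320 in total RNA. Of the 110 genes 11 were cuticle collagens of the col, dpy, rol, sqt and bli classes, of which 0 were called in the main test and 7 fell with the replicate block. sqt-3, of these 7, had 61.8, 69.5 and 1610 in the IP and 296, 263 and 8318 in total RNA. Others of the 7, dpy-2, dpy-3, dpy-10, col-121 and col-125, stood at 0 in the shallow IP replicate 2. dpy-3 and col-121 stood at 0 in IP replicate 1 too, so these pair ratios rest on the floor. Of the 110 genes, 15 were among the genes that rose in the main test. There 17.8% of all tested genes rose and 9.61% fell, and with the replicate block 21.2% fell. In the fit limited to a mean of at least 100, 24.9% rose. The 110 genes were picked for a gap between replicates, which widens the spread in the unpaired test. Their main-test counts, and those of the collagens, are thus held down by the choice itself.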

How the data were processed

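RNA of 3 IP and 3 total RNA libraries was sequenced for each experiment used. Reads were processed with kallisto 0.46.1 and DESeq2 1.30.1 in R 4.0.4 on build ce11, per the submitters' processing notes, which give no order of steps. The authors deposited a table per experiment with normalized counts as a signal per library, DESeq2's log2 fold changes and adjusted p-values. Raw counts were not used here, so depth was estimated from the lowest values above 0 in a library, taken as about 1 read. Each table was normalized separately, so levels were compared only within it, and differences between experiments compare ratios formed within each table.

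From these values, log2 of the normalized count plus 1 was fitted with limma-trend 3.58.1 in R 4.3.3 for genes whose mean reached 10; p-values were adjusted by Benjamini-Hochberg over all tested genes, with a threshold of 0.05. These differences were the interaction term over 12 libraries. Summaries used Python 3.11.15, numpy 2.4.6, pandas 2.3.3, scipy 1.17.1 and matplotlib 3.10.9. Positions and transcript lengths come from Ensembl release 115 (WBcel235, which is ce11), with 17733 of 17751 listed genes matched.

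Members and gene lists were chosen with earlier results of these data known. Named genes were rpl-22, nep-17, the members of each list with the highest mean and the largest called change in each direction, the 15 highest IP levels per kb, the 10 largest rises and 8 largest falls (mean of at least 1000, no clone names), and genes from the 6 largest differences in each direction (the same, with that mean in both tables and IP and total RNA apart in at least 1 of them). Others given with values (dpy-7, rab-3, unc-122, myo-2, mtl-1 and the genes of replicate 3, for example) were chosen after their values were seen.

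Libraries with the same replicate number deviated together, with correlations of 0.304, 0.422 and 0.628 across genes for replicates 1, 2 and 3. Other pairings gave -0.593 to 0.092. Deviations from the mean of a fraction cancel over its libraries, so these lower values follow in part from the higher ones. The replicate block was taken as a pairing found in the data. With it, 3122 genes rose and 2891 fell. Alternatives were pseudocounts of 0.5 and 5, no filter, a minimum mean of 100, equal-sum scaling, the block, each intestine library left out and the authors' deposited test.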

Additional observations from a re-analysis of the deposited data

Results flagged for a closer look

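The differences named in the report were listed because the interaction term itself passed the threshold. The IP ratio thus differed between experiments by more than the spread between libraries. Strain, tag construct and scaling differed along with the tissue, and their parts cannot be told apart. Against muscle the log2 difference was 7.47 for dod-19, 6.71 for ctsa-1.2 and 6.24 for lys-8, and -8.37 for cpn-3, -8.12 for pat-10 and -7.50 for csq-1. Against neurons B it was 4.22 for clec-41 and 3.63 for aagr-2, and -5.51 for egl-21, -5.48 for aldo-1 and -4.76 for pck-1. Against the ubiquitous IP it was 7.52 for cah-4, 6.77 for cpf-1, 6.19 for clec-41 and 5.81 for nspg-6, and -2.67 for mlc-2, -2.39 for perm-2 and -2.31 for far-2. Intestine markers were themselves above total RNA in the neurons B IP (median log2 1.26), and their part in the differences from it was not tested.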

How the results depend on the processing

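No gene called in the main test was called in the other direction in any of the alternatives run. Rises were counted within 1.5 times of the main 2427 throughout, except with equal-sum scaling (1509). Falls, 1310 in the main test, numbered 2891 with the replicate block, 5484 with equal-sum scaling, 3668 in the authors' deposited table and 263 to 1781 with 1 intestine library left out. The replicate block gave 2812 genes higher than in neurons B and 2369 lower than in the ubiquitous IP. Equal-sum scaling gave 613 higher than in neurons B, 1115 higher and 5721 lower than in the ubiquitous IP, and leaving out 1 library 745 to 2039 lower than in that IP; no library of the other experiments was left out. rpl-22 passed the threshold at a log2 of 0.86 with the block, with a minimum mean of 100 and in the authors' deposited table, and turned to -0.33 with equal-sum scaling. Under that scaling the sign also turned for egl-21 (-0.11), gon-2 (-0.040), prx-19 (-1.04), rab-3 (-0.64), rpl-25.1 (-0.13) and rpl-41.2 (-0.79), of which gon-2 and rpl-25.1 were called in the main test. With 1 library left out, values ran from -2.05 to 0.64 for dpy-7, -1.22 to 0.13 for myo-2, -0.019 to 0.24 for prx-19 and -0.092 to 0.83 for rpl-41.2. The cause of these changes was not tested, beyond the scaling shift itself. Of 160 called genes that the text names, 113 kept the call with each intestine library left out in turn. The replicate block ended none of these calls and added 11 among the other named genes. The low depth of IP replicate 2 limits genes of low level most. A search of promoters for GATA motifs was not run.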

Other observations

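Among the 110 genes that were at least 4-fold higher in replicate 3 of both fractions, several had steady ratios within pairs although their level moved. aqp-1, an aquaglyceroporin gene, had 7133, 4635 and 29530 normalized counts in the IP, against 351, 332 and 1815 in total RNA, with pair ratios of log2 4.34, 3.80 and 4.02. thn-1, a thaumatin-like gene, had 1521, 1734 and 16220 in the IP and 48.4, 45.9 and 440 in total RNA, with pair ratios of 4.95, 5.21 and 5.2. Both rose in the main test. lipl-3, a lysosomal-type lipase gene, had 908, 429 and 12810 in the IP and 119.2, 44.7 and 2317 in total RNA, and was called with the replicate block (limma, adjusted p = 0.00025) but not without pairing (adjusted p = 0.22). tts-1, a long noncoding RNA, had 2709, 2314 and 25130 in the IP and 3463, 3931 and 48510 in total RNA. The galectin gene lec-2 did not keep one ratio, at -0.75, -2.54 and 1.34 in replicates 1, 2 and 3. Why these genes were high in replicate 3 was not tested.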
